A study of Homo sapiens with 6 samples.

Results

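BMP8B, a ligand of the bone morphogenetic protein (BMP) branch of the TGF-beta family, is described here together with 9 further genes of TGF-beta family signalling in THP-1 cells that overexpress PTX4. The 10 genes were BMP8B, its paralog BMP8A, TGFB1, the receptor genes TGFBR1, TGFBR2, BMPR1A, BMPR2 and ACVR1, the inhibitory SMAD gene SMAD7 and the target gene ID1. They were found by Ensembl identifier, and all 10 were present among the 78686 genes of the tables. BMP8B was selected on its measured log2 fold change between PTX4-OE and EV in these libraries, so that difference is given as a description. The other members were listed as its relatives in the pathway.

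The cells were THP-1, a human monocytic leukaemia line, carrying by stable transduction a construct that overexpresses PTX4 (PTX4-OE, 3 libraries). They were set against THP-1 transduced with the empty vector (EV, 3 libraries). PTX4 encodes pentraxin 4, a soluble pattern recognition protein. The labels number the biological replicates 1 to 3 in each group and give all 6 libraries the same batch. The promoter of the construct, and whether the cells were a pool or a clone, are not given in the sources used here.

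TGF-beta family ligands are secreted dimers that bring type I and type II receptor kinases together on the cell surface. The type I receptor then phosphorylates receptor SMADs, which join SMAD4 and act on target genes in the nucleus. BMP ligands signal mainly through SMAD1, SMAD5 and SMAD9, and TGF-beta and activins mainly through SMAD2 and SMAD3. In monocytes TGF-beta1 is known as a regulator of differentiation and of inflammatory output. BMP8B is known from mice for its part in germ cell formation and in heat production by brown fat.

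Total expected counts ran between 31078642 and 37718207 in PTX4-OE libraries and between 29670641 and 32691577 in EV libraries. PTX4 itself stood at 444.0 to 702.5 TPM (a transcript level scaled for gene length and library total) in PTX4-OE and at 0 to 0.13 TPM in EV. All 10 monocytic markers averaged 1 TPM or more, while the 4 T cell markers were listed at 0 in every library. Of the other cell type markers, 0 of 4 B cell, 0 of 3 erythroid, 0 of 4 fibroblast, 1 of 4 epithelial (KRT8) and 1 of 3 endothelial markers (PECAM1, which leukocytes also express) reached that level. The mitochondrial share of counts was 2.79%, 5.39% and 4.97% in PTX4-OE and between 4.75% and 5.91% in EV, lowest in PTX4-OE replicate 1. These are bulk samples, in which fewer cells of a type and less RNA per cell cannot be told apart.

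BMP8B and BMP8A lie on chromosome 1 in GRCh38. BMP8B (ENSG00000116985.12) runs from 39757182 to 39788865 on the minus strand, and BMP8A (ENSG00000183682.8) from 39491636 to 39529869 on the plus strand. Their 7 coding exons have the same lengths, 1206 coding bases in all, of which 1184 (98.2%) are identical. Exons 2 and 3, of 190 and 149 coding bases, are identical throughout. Exon 6 is shown because it is the coding exon with the lowest identity, at 107 of 111 bases, and even there the genes differ at only 4 positions, in capitals. BMP8B has this exon at chr1:39763092-39763202 and BMP8A at chr1:39523007-39523117, both written 5′ to 3′ on the strand of the gene.
BMP8B exon 6: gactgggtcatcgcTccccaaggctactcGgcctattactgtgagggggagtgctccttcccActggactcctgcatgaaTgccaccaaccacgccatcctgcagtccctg
BMP8A exon 6: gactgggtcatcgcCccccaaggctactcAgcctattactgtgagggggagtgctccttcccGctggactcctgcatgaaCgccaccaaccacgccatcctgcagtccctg
Over the whole spliced transcripts the genes are easier to tell apart. Of all stretches of 100 bases in the BMP8B transcript (4826 bases), 8.78% also occur in that of BMP8A. Of those in the BMP8A transcript (5636 bases), 7.5% occur in that of BMP8B. The share falls with length, from 15.0% at 50 bases to 7.25% at 150 bases for BMP8B, and from 12.8% to 6.18% for BMP8A. Reads that lie wholly within shared stretches cannot be assigned to either gene by sequence. Both genes had fractional counts in 5 of the 6 libraries, so their split is uncertain. The sum of both genes, which does not depend on the split, is therefore given beside BMP8B.

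The promoters of the paralogs also align, and they are shown because the transcripts nevertheless stand at very different levels. Both windows hold the 250 bases before the RefSeq start site (GRCh38.p14), on the strand of the gene, with bases that differ or are unmatched in the alignment in capitals. The BMP8B window is chr1:39788866-39789115 on the minus strand, and part of it lies in the lncRNA gene ENSG00000261798, which starts 111 bases from BMP8B on the other strand. The BMP8A window is chr1:39491386-39491635 on the plus strand.
BMP8B promoter: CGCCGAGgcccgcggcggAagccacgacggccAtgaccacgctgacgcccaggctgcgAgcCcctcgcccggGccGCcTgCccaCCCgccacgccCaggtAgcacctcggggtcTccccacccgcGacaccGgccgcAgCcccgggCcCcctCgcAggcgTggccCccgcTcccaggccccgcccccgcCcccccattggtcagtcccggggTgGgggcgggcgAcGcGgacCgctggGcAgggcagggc
BMP8A promoter: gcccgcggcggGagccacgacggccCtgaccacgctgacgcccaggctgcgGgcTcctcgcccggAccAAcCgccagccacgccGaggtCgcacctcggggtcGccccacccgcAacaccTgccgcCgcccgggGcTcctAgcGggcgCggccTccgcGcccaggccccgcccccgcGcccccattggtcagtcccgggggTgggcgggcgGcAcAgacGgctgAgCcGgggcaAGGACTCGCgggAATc
Of 263 aligned columns 208 (79.1%) were identical, 29 were mismatches and 26 were gaps. G and C made up 81.6% of the BMP8B window and 79.6% of the BMP8A window. On either strand, the motif CCAAT occurred 1 time in each window and is found in 32.0% of all RefSeq promoter windows of this length. The motif GGGCGG occurred 3 times in the BMP8B window and 4 times in the BMP8A window, against 42.6% of windows with at least 1 match, and TATAAA occurred in neither, against 10.7%. In the BMP8A window 2 of the GGGCGG matches overlapped each other, and no other matches overlapped.

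BMP8B had the highest mean TPM of the 10 members in both groups and BMP8A the lowest, although TGFB1 (41.52 TPM) exceeded BMP8B in PTX4-OE replicate 3. BMP8B stood at 73.13, 55.69 and 37.74 TPM in PTX4-OE replicates 1, 2 and 3, against 80.64, 74.82 and 45.81 TPM in EV replicates 1, 2 and 3. BMP8A stood at 1.30, 1.49 and 1.73 TPM in PTX4-OE and at 1.49, 1.47 and 1.55 TPM in EV. On this scale, which corrects for gene length, the level of BMP8B was 21.8 to 56.2 times that of BMP8A in PTX4-OE libraries and 29.6 to 54.1 times in EV libraries. BMP8B took 94.9% to 97.9% of the counts of the pair in PTX4-OE and 96.2% to 97.9% in EV.

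In EV libraries the mean TPM of the members followed the order BMP8B (67.1 ± 18.7), TGFB1 (47.6 ± 5.81), TGFBR1 (19.9 ± 2.52), ID1 (19.3 ± 4.50), TGFBR2 (4.93 ± 1.09), BMPR2 (4.47 ± 0.511), BMPR1A (4.23 ± 0.607), ACVR1 (3.70 ± 0.891), SMAD7 (3.59 ± 0.138) and BMP8A (1.5 ± 0.0416; SD, n = 3 each). Neighbours in this order had ranges that did not overlap at 3 places only, namely between TGFB1 and TGFBR1, between ID1 and TGFBR2, and between SMAD7 and BMP8A. BMP8B and TGFB1 overlapped, as did TGFBR1 and ID1 and all neighbours from TGFBR2 to SMAD7. In PTX4-OE libraries the means were 55.5 ± 17.7 TPM for BMP8B, 46.3 ± 9.49 for TGFB1, 20.2 ± 2.81 for TGFBR1 and 15.8 ± 3.85 for ID1 (SD, n = 3 each).

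BMP8B was lower in PTX4-OE than in EV in each pair of libraries with the same replicate number, by a modest amount. Scaled for library size, it stood at 261.1, 198.1 and 125.9 CPM (counts scaled to library size, TMM-normalised) in PTX4-OE replicates 1, 2 and 3, against 292.8, 275.0 and 157.3 CPM in EV replicates 1, 2 and 3. The groups overlapped, since the PTX4-OE replicate 1 and 2 values lay above that of EV replicate 3, and replicate 3 was the lowest library in both groups. The mean was 195.0 ± 67.6 CPM in PTX4-OE and 241.7 ± 73.6 CPM in EV (SD, n = 3 each). The log2 difference, PTX4-OE minus EV, was -0.17, -0.47 and -0.32 in pairs 1, 2 and 3.

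Whether BMP8B passed the test over all genes depended on the use of the pairs and on the scale. The labels do not say what libraries of the same number share, and the pairing was taken from how they deviate together. A gene was called where edgeR's quasi-likelihood test gave a Benjamini-Hochberg adjusted p under 0.05 over the 17640 genes tested. With replicate number as a block the log2 fold change was -0.32 (SE 0.057, edgeR adjusted p = 0.0282), a level 80.2% of that in EV. On log2(TPM + 1) with blocks BMP8B was not called (-0.28, limma unadjusted p = 0.0036, adjusted p = 0.443), in a fit that called 1 gene in all. In the edgeR fit with blocks 46 genes were called, or 0.261% of all tested, and 41 (0.232%) were called lower. Without blocks the log2 fold change was -0.31 with an SE of 0.32 (edgeR unadjusted p = 0.361), and BMP8B was not called. In this fit without blocks PTX4 was the 1 gene called (0.00567%) and 0 genes were called lower (131 genes had an unadjusted p under 0.05). Since BMP8B was selected on its difference in these libraries, its call is no separate evidence.

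The call of BMP8B also rested on pair 2, which had the largest difference. Over all genes, the libraries of pair 2 also deviated together least from their group means (correlation 0.300, against 0.824 and 0.854 for pairs 1 and 3). Without that pair the log2 fold change with blocks was -0.24 and the edgeR adjusted p was 0.275. Without pair 1 it was -0.40 (adjusted p = 4.585e-04, edgeR) and without pair 3 -0.33 (adjusted p = 1.428e-04, edgeR). The fits without pairs 1, 2 and 3 called 80, 30 and 208 genes in all, against 46 with every pair. They hold fewer libraries, so a smaller adjusted p in them is no firmer evidence. Left out singly without blocks, libraries moved the value of BMP8B from -0.57 without PTX4-OE replicate 1, the library with the low mitochondrial share, to -0.082 without PTX4-OE replicate 3. With mitochondrial genes left out of all libraries the value without blocks was -0.31. The summed counts of BMP8A and BMP8B gave -0.31 with blocks (edgeR adjusted p = 0.0329) and -0.30 without (unadjusted p = 0.357), and this sum is nearly all BMP8B.

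**Figure D1:**
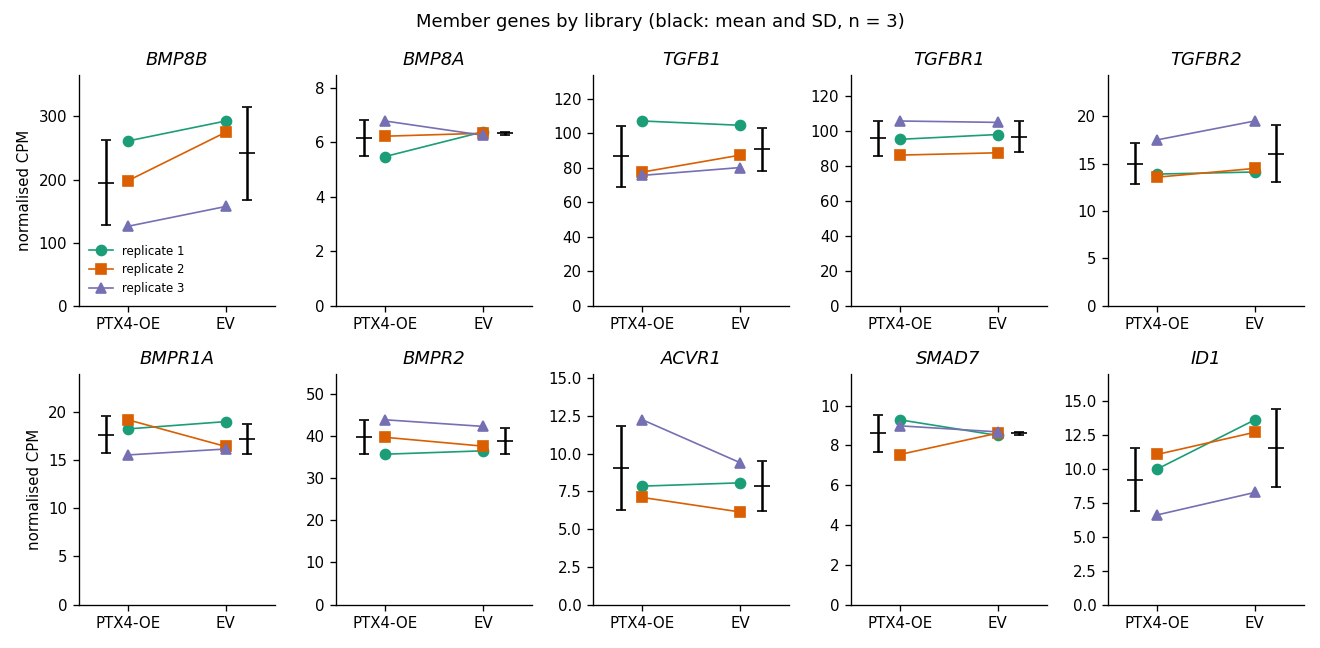
Normalised CPM (vertical axes, each from 0) of the 10 members in the 3 PTX4-OE and 3 EV libraries. Lines join libraries of the same replicate number, and black bars are the mean and SD of each group (n = 3). BMP8B is lower in PTX4-OE on each of the 3 lines, while replicate 3 lies well below the others in both groups.

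The difference between replicates of BMP8B was larger than that between the groups. Replicate 3 was below replicate 1 by a log2 difference of -1.05 in PTX4-OE and of -0.89 in EV. The log2 range over EV libraries was 0.89, against a median of 0.35 for the 14584 genes with a mean of at least 1 CPM, and 8% of those genes had a larger range. BMP8A varied less. It stood at 5.48, 6.23 and 6.79 CPM in PTX4-OE replicates 1, 2 and 3 and at 6.39, 6.34 and 6.26 CPM in EV, a log2 range of 0.28 and 0.027. BMP8A was not called, with a log2 fold change of -0.040 with blocks (SE 0.12) and pair values of -0.20, -0.023 and 0.11.

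The genes nearest to BMP8B in pattern were ranked by the root mean square difference of log2 CPM, centred on each gene, over the 6 libraries and the same 14584 genes. They were SERPINB8 (0.055), an intracellular serine protease inhibitor, TGM5 (0.055), a transglutaminase, TUBA4A (0.083), an alpha tubulin, DBI (0.094), which binds acyl-CoA, and the lncRNA LRRC8D-DT (0.11). SERPINB8 stood at 152.5, 111.2 and 67.19 CPM in PTX4-OE replicates 1, 2 and 3 and at 168.4, 148.9 and 82.82 CPM in EV. TUBA4A stood at 51.91, 46.06 and 28.73 CPM in PTX4-OE and at 63.81, 63.12 and 36.83 CPM in EV. For all 5 genes replicate 3 was the lowest library of both groups, as it was for BMP8B. The ranking used these same libraries, so this shared low value follows from how the genes were picked. The likeness is a description over 6 libraries.

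**Figure D2:**
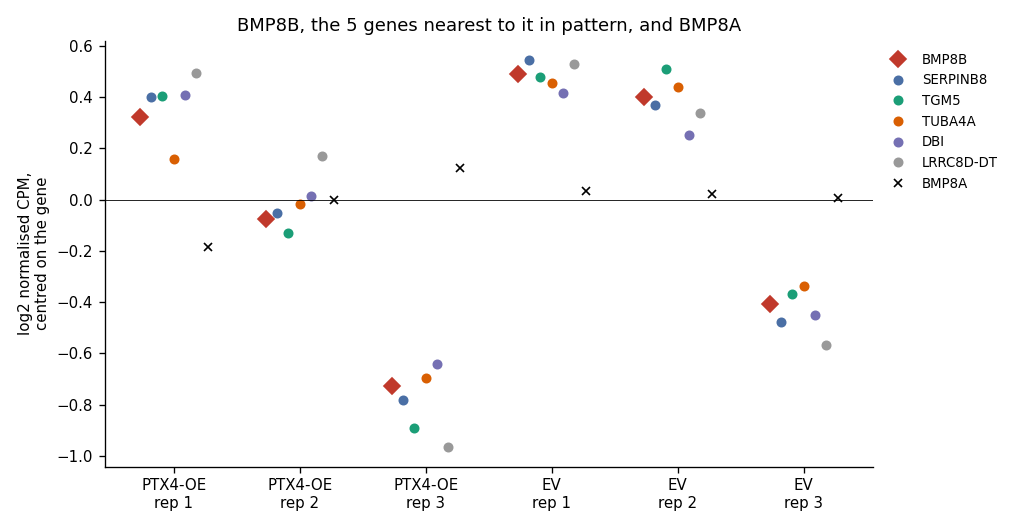
Log2 normalised CPM of BMP8B, of the 5 genes nearest to it in pattern and of BMP8A (vertical axis, centred on the mean of each gene) in the 3 PTX4-OE and 3 EV libraries. BMP8B and its nearest genes, which were picked for this likeness, are low in replicate 3 of both groups, whereas BMP8A stays close to 0.

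OXCT2, which lies inside an intron of BMP8B on the same strand, was also lower in PTX4-OE in all 3 pairs. OXCT2 encodes a succinyl-CoA transferase of ketone body use that is known from the testis. It has a single exon, at 39769523 to 39771348 of chromosome 1, within the intron between exons 3 and 4 of BMP8B. It stood at 23.81, 28.28 and 16.88 CPM in PTX4-OE replicates 1, 2 and 3, against 33.52, 33.69 and 20.88 CPM in EV. Replicate 3 was again the lowest library of each group, and the groups overlapped.

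With blocks the log2 fold change of OXCT2 was -0.35 (SE 0.067, edgeR adjusted p = 0.0416), and without blocks it was -0.35 with an SE of 0.25 and no call. It lost its call with blocks in DESeq2 (adjusted p = 0.137), on log2(TPM + 1) (limma adjusted p = 0.443), without pair 1 (edgeR adjusted p = 0.161) and without pair 2 (edgeR adjusted p = 0.104). Reads from unspliced BMP8B RNA could fall on OXCT2 and were not separated here. OXCT2 also has a near copy, the pseudogene OXCT2P1 inside BMP8A, which stood at 0.15 to 0.55 CPM in PTX4-OE and 0.24 to 0.60 CPM in EV.

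Other genes around the paralogs did not pass the test in either fit. PPIE, a cyclophilin of the spliceosome that overlaps BMP8B on the opposite strand, shares 80 bases with its exons (1.66%) and had a log2 fold change of -0.042 with blocks (SE 0.047). The lncRNA ENSG00000261798, next to the start of BMP8B, was at -0.15 (SE 0.12), and HPCAL4, the nearest tested gene on the other side, at -0.28 (SE 0.37) with under 1 CPM. The lncRNA ENSG00000284719, named after its values were seen, starts 10554 bases from BMP8B and was at -0.21 (SE 0.064, edgeR adjusted p = 0.290). It was lower in all 3 pairs (-0.19, -0.17 and -0.26), as were 14.1% of all genes. Beside BMP8A, the cytoskeletal linker gene MACF1 was at 0.075 (SE 0.048), PABPC4, which encodes a poly(A)-binding protein, at 0.046 (SE 0.059), and the lncRNA PPIEL, which shares 416 exon bases with BMP8A on the opposite strand, at -0.24 (SE 0.20). The sources used here do not say if the libraries kept strand, so reads of genes that overlap on opposite strands cannot be told apart.

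**Figure D3:**
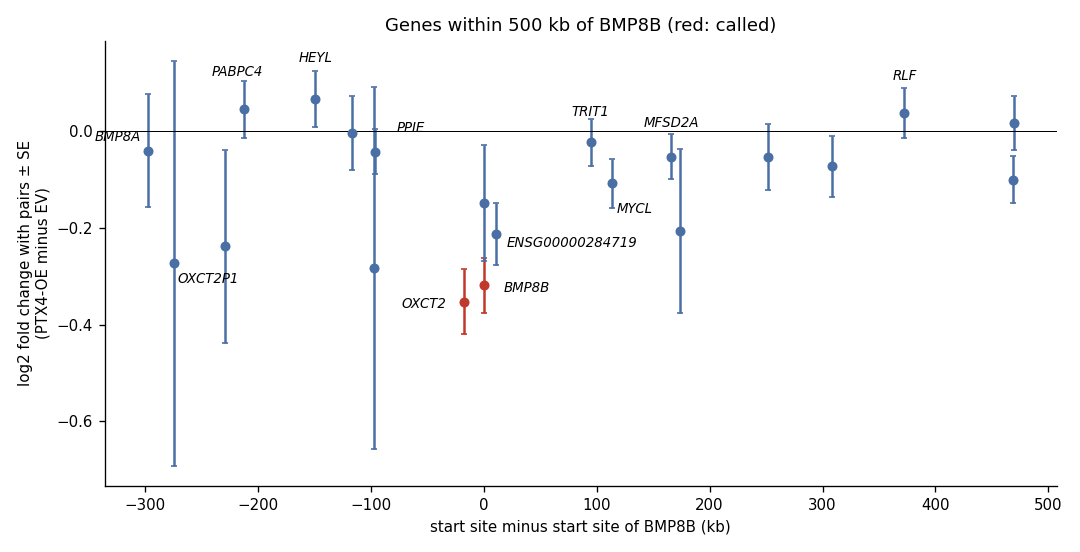
Log2 fold change with pairs, PTX4-OE minus EV, with its SE (vertical axis), of each tested gene that starts within 500 kb of BMP8B, against the distance between start sites in kb (horizontal axis). BMP8B (-0.32) and OXCT2 (-0.35) are called, in red, and BMP8A at the left edge (-0.040) is not.

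TGFB1, the gene of the main TGF-beta ligand of blood cells, was abundant and did not pass the test. TGFB1 stood at 107.2, 77.55 and 75.64 CPM in PTX4-OE replicates 1, 2 and 3, against 104.7, 87.40 and 80.19 CPM in EV. Replicate 1 was the highest library of both groups, and the groups overlapped. The log2 fold change with blocks was -0.072 (SE 0.052, edgeR adjusted p = 0.752), with pair values of 0.034, -0.17 and -0.084.

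The receptor genes did not pass the test in either fit. TGFBR1, the type I receptor for TGF-beta, stood at 95.03, 86.02 and 105.5 CPM in PTX4-OE replicates 1, 2 and 3, against 97.77, 87.34 and 104.7 CPM in EV. Its values differed less within each pair than within each group, and the log2 fold change with blocks was -0.017 (SE 0.047). TGFBR2, the type II receptor for TGF-beta, stood at 13.91, 13.58 and 17.52 CPM in PTX4-OE and at 14.13, 14.51 and 19.52 CPM in EV. TGFBR2 was lower in all 3 pairs, by -0.022, -0.093 and -0.15, but was not called (-0.094, SE 0.075, edgeR adjusted p = 0.782).

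Of the BMP receptors, BMPR1A is a type I and BMPR2 a type II receptor, and ACVR1 is a type I receptor for BMPs and activins. BMPR1A stood at 18.28, 19.23 and 15.57 CPM in PTX4-OE replicates 1, 2 and 3, against 19.04, 16.45 and 16.19 CPM in EV. BMPR2 stood at 35.69, 39.70 and 43.86 CPM in PTX4-OE, against 36.49, 37.60 and 42.29 CPM in EV. The groups overlapped for both genes, and their log2 fold changes with blocks were 0.034 (SE 0.077) and 0.033 (SE 0.056). ACVR1 stood at 7.85, 7.09 and 12.24 CPM in PTX4-OE and at 8.06, 6.13 and 9.39 CPM in EV. Its value in PTX4-OE replicate 3 lay above all others. Its log2 fold change with blocks was 0.19 (SE 0.11, edgeR adjusted p = 0.655), and leaving out pair 3 gave 0.066.

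ID1, a helix-loop-helix inhibitor of transcription factors and a textbook target of BMP signalling, had a log2 fold change about as large as that of BMP8B but was not called. It stood at 9.99, 11.07 and 6.61 CPM in PTX4-OE replicates 1, 2 and 3, against 13.63, 12.71 and 8.27 CPM in EV. The PTX4-OE library was the lower member of each pair, while the groups overlapped because EV replicate 3 was low. The log2 difference was -0.43, -0.19 and -0.30 in pairs 1, 2 and 3. The fit with blocks gave -0.32 (SE 0.093, edgeR unadjusted p = 0.00319, adjusted p = 0.232), and that without blocks -0.32 (SE 0.26).

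SMAD7, which blocks type I receptors and is itself induced by TGF-beta, had a fold change close to 0. It stood at 9.29, 7.54 and 8.99 CPM in PTX4-OE replicates 1, 2 and 3, against 8.51, 8.62 and 8.68 CPM in EV. PTX4-OE libraries lay on both sides of the narrow EV range. The log2 fold change with blocks was 8.792e-05 (SE 0.10), with pair values of 0.12, -0.18 and 0.047.

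Among the 10 members, BMP8B alone was called with blocks, against 0.261% of all genes (0.232% lower). Without blocks 0 members were called, against 0.00567% of all genes. BMP8B was selected on its difference in these libraries, so its place in this and the following counts is no separate evidence. Calls in the higher direction, 0 among the members, made up 0.0283% of all genes. An unadjusted p under 0.05 with blocks was reached by BMP8B and ID1, both lower, against 8.8% of all genes (4.36% higher and 4.44% lower). Without blocks 0 members reached it, against 0.743% of all genes (0.238% higher and 0.505% lower). The 3 members lower in all 3 pairs were BMP8B, TGFBR2 and ID1, and 0 members were higher in all 3 pairs, against 14.1% and 16.4% of all genes. For 0 of the 10 members did the groups fail to overlap, against 2.07% of all genes with PTX4-OE higher and 2.04% with PTX4-OE lower.

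**Figure D4:**
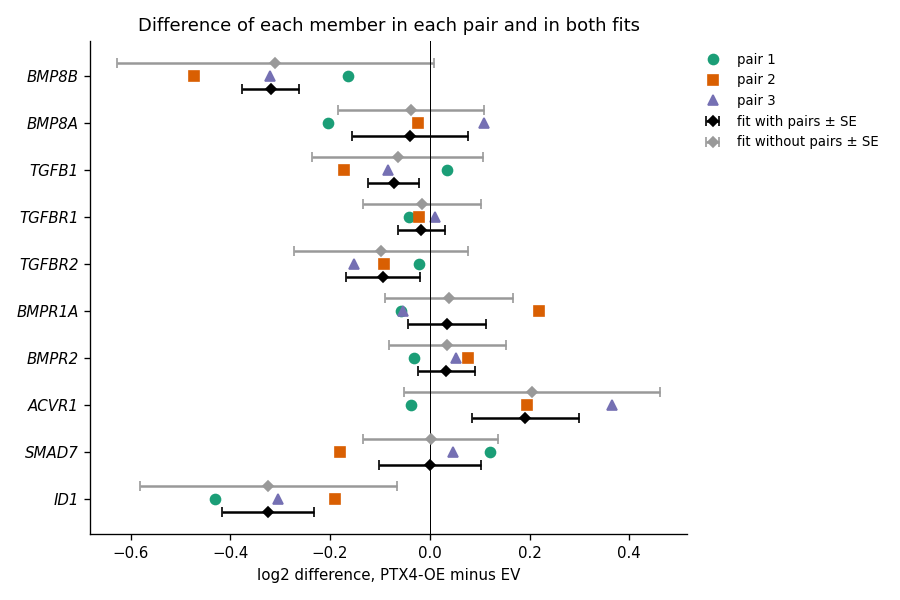
Log2 difference, PTX4-OE minus EV (horizontal axis), of each member in pairs 1, 2 and 3, with the fitted log2 fold change and its SE with pairs (black) and without (grey). BMP8B, TGFBR2 and ID1 lie below 0 in all 3 pairs, and the SE of BMP8B is 0.057 with pairs and 0.32 without.

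The wider TGF-beta family was read from 10 role lists, in which a gene may stand in more than 1 list. Of their 114 matched genes 80 passed the filter on low counts, and 70 of these were not members. With blocks, 0 of the 70 were called by edgeR, against 0.261% of all genes. DESeq2 and limma-voom also called 0 of the 70 with blocks, against 38 and 66 of the 17640 genes tested. At such shares a count of 0 says little about the family. At an unadjusted p under 0.05, 8 of the 70 passed with blocks (6 higher and 2 lower), against 8.8% of all genes, and 0 without blocks. The median log2 fold change with blocks was -0.012 over the 80 genes and 0.0052 over all genes tested, and 42.5% and 51.9% of them were positive. On log2(TPM + 1) the family median was 0.016, so its sign depended on the scale.

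Of the ligand genes, 7 of 13 TGF-beta and activin ligands and 11 of 20 BMP and GDF ligands were tested. With blocks BMP8B was the 1 called, against 0.261% of all genes. After TGFB1, the most abundant in the first list were INHBE, an activin subunit gene (7.86 TPM in PTX4-OE and 7.61 TPM in EV), and GDF11 (3.88 TPM in PTX4-OE and 3.82 TPM in EV). GDF15, a cytokine of cell stress, averaged 18.1 TPM in PTX4-OE and 14.3 TPM in EV. It stood at 7.71, 9.82 and 20.54 CPM in PTX4-OE replicates 1, 2 and 3, against 7.62, 7.46 and 15.59 CPM in EV, a log2 fold change of 0.28 with blocks (SE 0.097, edgeR adjusted p = 0.360). Replicate 3 was the highest library of both groups. GDF1, the next by level, averaged 6.0 TPM in PTX4-OE and 5.63 TPM in EV. Among all list genes with a mean of at least 1 CPM, the largest negative values were those of GDF9, an oocyte factor (-0.49, SE 0.29, mean 1.17 CPM), and INHBC, an inhibin beta subunit gene (-0.35, SE 0.26, mean 1.79 CPM).

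Of the receptor and SMAD genes 0 were called, against 0.261% of all genes with blocks. Their levels ran from ACVR1C, a type I receptor gene (mean 0.135 TPM over the 6 libraries), to ENG (39.6 TPM). Of 6 tested type I receptors 3 had positive and 3 negative log2 fold changes with blocks, and ACVR1B (8.05 TPM in PTX4-OE and 7.34 TPM in EV) and ACVRL1 (6.36 TPM in PTX4-OE and 5.99 TPM in EV) followed TGFBR1 in level. Among 4 type II receptors ACVR2B was the most abundant, at 6.31 TPM in PTX4-OE and 5.65 TPM in EV. ENG, the co-receptor endoglin, averaged 40.3 TPM in PTX4-OE and 39.0 TPM in EV, far above TGFBR3 (1.58 TPM in PTX4-OE and 1.39 TPM in EV) and BAMBI, a receptor decoy (0.497 TPM in PTX4-OE and 0.620 TPM in EV). All 8 SMADs were tested, with log2 fold changes from -0.14 to 0.068, and SMAD9 was the lowest in level (mean 0.20 TPM). SMAD2 averaged 32.4 TPM in PTX4-OE and 31.6 TPM in EV, SMAD3 18.2 TPM in PTX4-OE and 18.9 TPM in EV, and SMAD4 17.3 TPM in PTX4-OE and 15.7 TPM in EV.

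Regulators inside and outside the cell likewise gave 0 calls, against 0.261% of all genes with blocks. The 17 intracellular regulators ran from -0.12 to 0.17 with blocks, and the most abundant were FKBP1A, which binds type I receptors (145.5 TPM in PTX4-OE and 142.4 TPM in EV), STRAP (58.6 TPM in PTX4-OE and 58.4 TPM in EV) and the SMAD corepressor gene TGIF1 (34.2 TPM in PTX4-OE and 35.0 TPM in EV). Of 13 extracellular antagonists 4 were tested, namely TWSG1, FSTL1, FSTL3 and NOG. TWSG1, a BMP-binding protein gene, averaged 11.6 TPM in PTX4-OE and 9.75 TPM in EV (log2 fold change 0.20, SE 0.063, edgeR adjusted p = 0.320), and FSTL1 averaged 7.5 TPM in PTX4-OE and 7.23 TPM in EV. NOG, the gene of the BMP antagonist noggin, stood at 7.54, 9.44 and 11.37 CPM in PTX4-OE replicates 1, 2 and 3, against 5.98, 5.45 and 12.91 CPM in EV. EV replicate 3 was the highest of the 6 libraries. NOG was at 0.27 with blocks (SE 0.14, edgeR adjusted p = 0.623). It was called only without the pair of replicate 3 (0.55, edgeR adjusted p = 0.0330), in a fit that called 208 of 17406 genes. The pair left out there had the opposite sign (-0.18).

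Among genes of latency and activation, NRROS, which holds latent TGF-beta1 on myeloid cells, was the most abundant. It stood at 104.2, 102.8 and 101.5 CPM in PTX4-OE replicates 1, 2 and 3, against 111.2, 109.1 and 104.9 CPM in EV. The groups did not overlap, which held for 2.04% of all genes in this direction, and the log2 fold change was small (-0.076, SE 0.046, edgeR adjusted p = 0.688). LTBP4, a latent TGF-beta binding protein gene, averaged 11.2 TPM in PTX4-OE and 11.04 TPM in EV, and FURIN, the gene of a convertase of ligand precursors, 11 TPM in PTX4-OE and 10.5 TPM in EV.

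Of 17 tested target genes 0 were called with blocks, against 0.261% of all genes. Of these target genes, 13 had a negative and 4 (23.5%) a positive log2 fold change (median -0.066), against 51.9% positive among all genes. An unadjusted p under 0.05 with blocks was reached by 5 of the 17, with ID3 and CCN2 higher and TGFBI, ID1 and KLF10 lower, against 8.8% of all genes. JUNB, an AP-1 subunit gene, averaged 61.1 TPM in PTX4-OE and 62.1 TPM in EV, and TGFBI, the gene of a secreted matrix protein, 58.0 TPM in PTX4-OE and 64.8 TPM in EV (log2 fold change -0.12, SE 0.048, edgeR adjusted p = 0.452). CCN2, which encodes connective tissue growth factor, had the largest positive value (0.70, SE 0.24, edgeR adjusted p = 0.346), at 1.14, 2.28 and 2.54 CPM in PTX4-OE replicates 1, 2 and 3 and 0.759, 1.40 and 1.48 CPM in EV. KLF10, a TGF-beta-inducible transcription factor gene named after its values were seen, stood at 48.24, 44.71 and 45.20 CPM in PTX4-OE, against 56.92, 48.44 and 52.34 CPM in EV, and was with NRROS the other family gene whose groups did not overlap (log2 fold change -0.19, SE 0.054, edgeR adjusted p = 0.231). The other ID genes, named after their values were seen, did not follow ID1. ID2 was at -0.0052 (SE 0.072) and ID3 at 0.25 (SE 0.10), and neither passed the test. The difference between ID1 and its relatives was not tested.

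**Figure D5:**
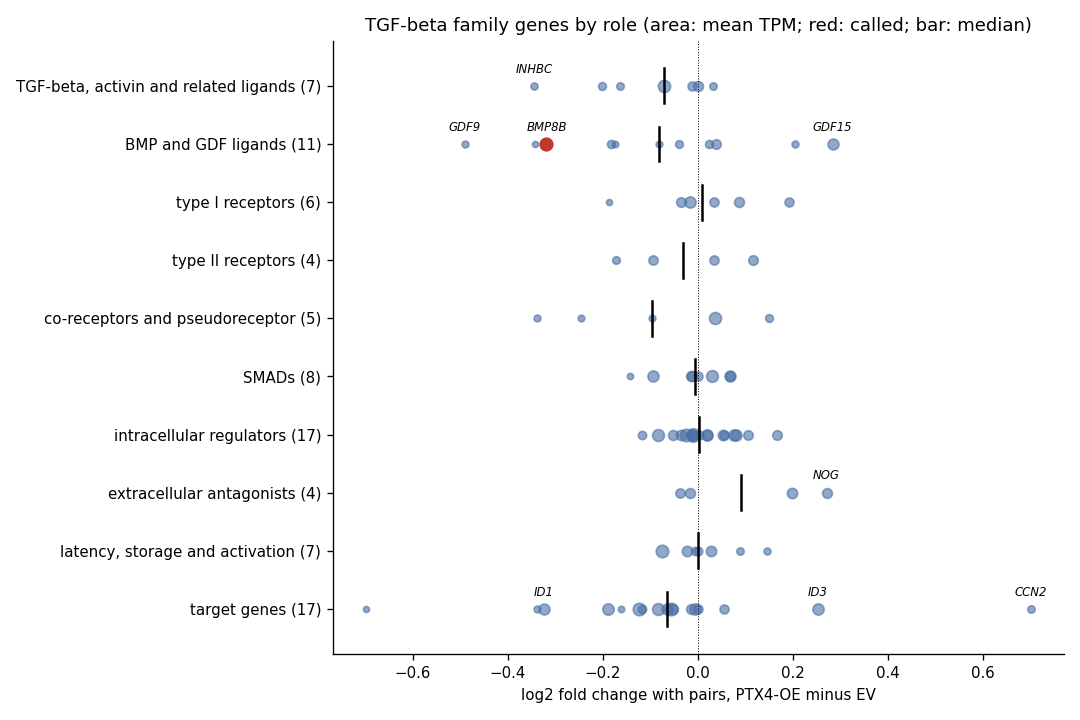
Log2 fold change with pairs, PTX4-OE minus EV (horizontal axis), of the 80 tested TGF-beta family genes by role list (vertical axis, number tested in brackets). Point area grows with mean TPM, black bars are list medians, and BMP8B, in red, is the 1 gene called.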

How the data were processed

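The 6 libraries of THP-1 cells, 3 PTX4-OE and 3 EV, were made from oligo(dT)-selected mRNA, per the labels' protocols. The submitters' processing notes list STAR and featureCounts, FastQC 0.11.5 and the build GRCh38, with no annotation release. The deposited expected counts per gene carry no normalization, and 7.94% of values are not whole numbers. The deposited TPM values correct for gene length and sum to the same total in each library. The FPKM table was not used.

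Of the 78686 genes, 61463 matched a symbol by Ensembl identifier, and of 115 list symbols 1, CRIPTO, did not. Rounded counts were tested with edgeR 4.0.16 (R 4.3.3), with filterByExpr, TMM and the quasi-likelihood F test. Standard errors are the log2 fold change over the square root of F. The main design had no block. Same-numbered libraries deviated together from their group means (correlations 0.824, 0.300 and 0.854 over 14583 genes; PTX4-OE replicate 1 with EV replicate 2 gave 0.251), all over 0.1, so numbers were taken as pairs and values with blocks are given; the labels do not say what a number shares. No pair of libraries agreed within sampling noise (chi-square over degrees of freedom at least 6.53), so each counts once. By this measure EV replicates 2 and 3 lay nearest to the PTX4-OE libraries of the same number (6.53 and 7.61). EV replicate 1 lay nearer to PTX4-OE replicate 2 (16.8) than to PTX4-OE replicate 1 (19). P-values without blocks measure the spread between these replicates. Those with blocks measure the spread that is left once replicate number is taken out. In both fits edgeR draws the spread of a gene towards that of other genes.

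Members and lists were chosen with earlier results of these data known. Named genes were the members, list genes called in either fit, and the 3 of highest mean TPM in each list. Also named were the 2 of largest change in each direction among list genes with 1 CPM or more. Neighbours of BMP8A and BMP8B and the 5 genes nearest in pattern to BMP8B were named too. KLF10, ID2, ID3 and ENSG00000284719 were added after their values were seen. Alternatives were RLE scaling, 2 other filters, DESeq2 1.42.0, limma 3.58.1 with voom or on log2(TPM + 1) and log2(TPM + 0.1), the replicate block, no mitochondrial genes, and leaving out each library or pair. Coordinates are from GENCODE 44 (GRCh38) and promoters from RefSeq (GRCh38.p14), aligned with Biopython 1.88. The fits were tested on simulated data.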

Additional observations from a re-analysis of the deposited data

How the results depend on the processing

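BMP8B, selected on this difference, kept a negative log2 fold change under all 21 alternatives, as did ID1 and the sum of BMP8A and BMP8B, which is nearly all BMP8B and no separate evidence. With a replicate block BMP8B was -0.32 by edgeR, -0.32 by DESeq2 and -0.32 by limma-voom, and the sum was -0.31 by each tool, all of them called. It was not called with a replicate block on log2(TPM + 1) (-0.28, adjusted p = 0.443). Without pair 1 and without pair 3, BMP8B was called at -0.40 and -0.33 and the sum at -0.38 and -0.33; without pair 2 neither was called. Leaving out single libraries gave -0.57 to -0.082 for BMP8B and -0.55 to -0.083 for the sum. The 3 fits with a replicate block by DESeq2, limma-voom and limma on log2(TPM + 1) were added after seeing the data.

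The count of genes called was 1 without blocks, 2 with no filter, 3 with DESeq2, 0 with limma-voom and 3 on log2(TPM + 0.1). With a replicate block it was 46 with edgeR, 38 with DESeq2 and 66 with limma-voom but 1 with limma on log2(TPM + 1), and 80, 30 and 208 with edgeR without pairs 1, 2 and 3. Of family genes 1 was called with a replicate block by edgeR, DESeq2 and limma-voom and without pair 1, and 2 without pair 3. The family median was 0.016 on log2(TPM + 1) with and without blocks, 0.019 on log2(TPM + 0.1), -0.035 with blocks without pair 3, and ran from -0.082 without PTX4-OE replicate 3 to 0.040 without PTX4-OE replicate 1.

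Every member except BMP8B and ID1 changed sign under some alternative, and the cause was not tested. TGFBR1 was 0.020 on log2(TPM + 1) with and without blocks and 0.021 on log2(TPM + 0.1). SMAD7 was -0.0058 with the filter at 1 CPM, -0.0025 without mitochondrial genes, -0.0027 with blocks by DESeq2, and -0.063 and -0.039 with blocks without pairs 1 and 3. BMP8A was 0.051 with blocks without pair 1, and BMPR1A -0.056 without pair 2. Without single libraries the ranges were -0.083 to 0.35 for ACVR1, -0.12 to 0.050 for BMP8A, -0.036 to 0.12 for BMPR1A, -0.048 to 0.12 for BMPR2, -0.048 to 0.077 for SMAD7, -0.23 to 0.040 for TGFB1, -0.10 to 0.046 for TGFBR1 and -0.23 to 0.068 for TGFBR2. Members with few counts, such as ACVR1 (180 to 478 per library), have wider standard errors with blocks than BMP8B (4918 to 9385).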
